A study of Mus musculus with 12 samples.

Results

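The 10 heat-shock chaperone genes Hspa1a, Hspa1b, Hsp90aa1, Hsph1, Dnajb1, Hspb1, Hspd1, Hspe1, Hspa8 and Bag3 were followed across the livers of healthy mice and of mice with acetaminophen (APAP, paracetamol) injury. They were chosen by name, as the main inducible chaperones and their partners, and make up 10 of the 24187 genes counted. All 10 were found by symbol and passed the filter on low counts. Bulk RNA sequencing, which counts the transcripts of a piece of tissue without separating its cells, was done on 12 livers. Of these, 3 came from untreated control mice, 5 from mice given 350 mg/kg APAP and then phosphate-buffered saline (vehicle), and 4 from mice given 350 mg/kg APAP and then hAAMs, human monocyte-derived macrophages that had been alternatively activated with interleukin-4 and interleukin-13. The comparison of vehicle-treated with control mice addressed the state of the injured liver, and that of hAAM-treated with vehicle-treated mice addressed the effect of the cells. For the experiments in general, the methods give saline with or without a cryopreservation medium for both cells and vehicle, and hAAMs either fresh or thawed. They do not say which applied to the sequenced mice, so any difference in medium and the effect of the cells cannot be told apart. The mice were C57BL/6J animals of 10 to 12 weeks, also named C57BL6/JOlaHsd in the methods, and the sex and number of hAAMs of the sequenced animals are not given in the sources used here. APAP was injected into the abdomen after 12 h of fasting, cells or vehicle followed through the tail vein 16 h after APAP, and the injected animals were then kept in a warming cabinet at 28 °C. Livers were taken 36 h after APAP by the methods and 32 h by a legend. The dose is that of the labels, and the same livers are shown elsewhere with a more severe model of higher dose. The labels call the control mice untreated, whereas the methods describe, for the experiments in general, fasted mice that received either APAP or saline, and do not say whether the 3 sequenced controls were among the latter or were kept warm. Any such difference from the APAP groups and the injury itself cannot be told apart.

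Heat-shock proteins are chaperones that bind unfolded stretches of other proteins and help them to fold, to stay soluble or to be degraded. HSP70 proteins work in cycles with a J-domain protein that delivers the client and a nucleotide exchange factor that releases it, and HSP90 takes over clients such as kinases and hormone receptors. In heat, oxidative damage or loading with damaged proteins, heat shock factor 1 (Hsf1) binds to repeated GAA and TTC units in their promoters, the heat-shock elements, and raises their transcription. In the liver, the toxic metabolite of APAP binds to cell proteins, mitochondrial ones among them, and hepatocytes near the central vein die.

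The promoters of these genes were searched for the letters of such elements in RefSeq windows of GRCm38.p6 that cover 250 bases before the RefSeq transcript start. Windows were found for 8 of the 10 genes and none for Hsp90aa1 and Hspa8, and where a gene had 2 windows the one nearest to its annotated start was used. A pair of units, written GAANNTTC or TTCNNGAA, each of which reads the same on both strands, was present before Hspa1a, Hspa1b, Hsph1, Hspb1 and Hspe1, and in 12.8% of all 32851 windows of the same length. A run of 3 units, GAANNTTCNNGAA or TTCNNGAANNTTC, which are each other's reverse complement and contain the pair, was present in the window of Hspe1 alone of the 8 used and in 0.466% of all windows. Neither pattern was found in the windows used for Dnajb1, Hspd1 and Bag3, which says only that these letters are absent from these windows. The second RefSeq window of Hspd1, which was not used, covers the bases of the Hspe1 match, read from the other strand. The windows of Hspa1a, which has the pair, and of Bag3, the gene with the smallest FDR here, which has none, are shown whole, and those of Hsph1, Hspb1 and Hspe1 as the 30 bases around the match. Sequences run 5′ to 3′ on the strand of the gene, and capitals mark the matches.
Hspa1a promoter, chr17:34972157-34972406, minus strand: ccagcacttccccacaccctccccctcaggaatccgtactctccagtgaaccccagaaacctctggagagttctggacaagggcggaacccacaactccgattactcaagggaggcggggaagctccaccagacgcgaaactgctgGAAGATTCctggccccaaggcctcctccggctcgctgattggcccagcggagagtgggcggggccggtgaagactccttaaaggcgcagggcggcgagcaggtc
Bag3 promoter, chr7:128523333-128523582, plus strand: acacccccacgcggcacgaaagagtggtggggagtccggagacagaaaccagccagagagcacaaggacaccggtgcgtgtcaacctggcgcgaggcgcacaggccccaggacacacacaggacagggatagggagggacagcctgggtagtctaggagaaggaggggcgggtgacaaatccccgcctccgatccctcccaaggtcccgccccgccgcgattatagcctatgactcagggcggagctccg
Hsph1 site, chr5:149636351-149636380, minus strand: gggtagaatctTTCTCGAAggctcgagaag
Hspb1 distal site, chr5:135887791-135887820, plus strand: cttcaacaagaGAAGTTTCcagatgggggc
Hspb1 proximal site, chr5:135887811-135887840, plus strand: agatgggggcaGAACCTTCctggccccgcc
Hspe1 site, chr1:55088053-55088082, plus strand: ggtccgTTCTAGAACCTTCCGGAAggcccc

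The match of Hspa1a lay 104 to 97 bases before the start (positions -104 to -97), and Hspa1b had it at the same distance. Their 250 bases were 98.8% identical and differed at 3 positions. The Hsph1 match was the closest to a RefSeq start, at -33 to -26, and since the GENCODE annotation starts Hsph1 40 bases further upstream, it lies inside the transcript annotated there. Hspb1 carried its matches at -117 to -110 and at -97 to -90. The overlapping matches of Hspe1 spanned -89 to -72 and lie inside the annotated bounds of its neighbour Hspd1, which is read from the other strand. A CCAAT box (CCAAT or ATTGG, 33.8% of all windows) was found before Hspa1a, Hspa1b, Hsph1 and Dnajb1, a GC box (GGGCGG or CCGCCC, 32.7%) before all 8 genes, and a TATA box (TATAAA or TTTATA, 12.4%) before none.

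**Figure D1:**
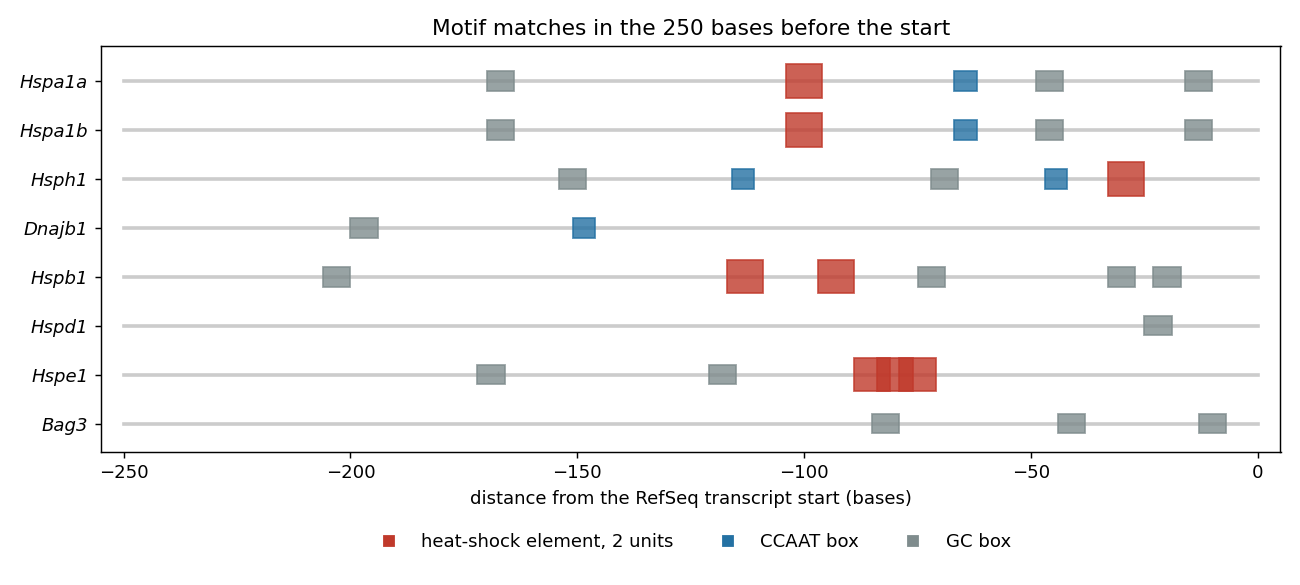
Matches to heat-shock elements (2 units), CCAAT boxes (CCAAT or ATTGG) and GC boxes (GGGCGG or CCGCCC) in the 250 bases before the RefSeq transcript start of the 8 genes with a window; the x axis is the distance from the start in bases. Heat-shock element letters stand before Hspa1a, Hspa1b, Hsph1, Hspb1 and Hspe1, and none in the windows used for Dnajb1, Hspd1 and Bag3. A second window of Hspd1, not drawn, covers the Hspe1 match.

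Between 47391650 and 74056505 counts were assigned to genes in each liver, with 60870399 to 74056505 in control, 50859599 to 61826952 in vehicle-treated and 47391650 to 55379420 in hAAM-treated mice, and the lowest count of any of the 10 genes in any liver was 556, for Hspb1 in hAAM replicate 3. Levels are given as CPM, the counts per 1000000 counts of a liver, after TMM scaling, which sets the typical gene equal between livers. The TMM factors separated the groups, at 0.832 to 0.859 in control and 0.933 to 1.14 in APAP-injured mice, and when only total counts were used for scaling, the all-gene median of the log2 fold change moved from 0.01 to 0.36 with vehicle and from 0.02 to 0.32 with hAAMs. All fold changes below are therefore relative to the typical gene. The libraries of hAAM replicate 4 and vehicle replicate 3 were nearly the same: their difference over genes was 1.45 times that of counting alone, whereas every other pair among the 9 injured livers differed 6.48 to 31.4 times as much as counting, and their chaperone levels stood in ratios of 0.922 to 1.02. Each was kept in its labelled group, and calls that change, and values or counts that move by over 1.5 times, without them are given both ways, apart from the difference of Bag3 between treatments, which is near 0 with and without them. Nothing in the labels says that mice shared a batch or that replicate numbers pair them.

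Hepatocyte markers summed to 57097 to 85174 CPM in control, 62262 to 90011 CPM in vehicle-treated and 65137 to 94501 CPM in hAAM-treated livers, with 7 of the 8 listed markers tested and none at 0. Of these 7, 3 were lower with vehicle and 1 with hAAMs than in control mice. Over all genes tested, 14.8% were lower and 15% higher with vehicle, and 9.96% lower and 10.7% higher with hAAMs, the background for the counts of these short lists. Macrophage markers were higher for 3 of 8 in both APAP groups (228.7 to 274 CPM in control, 278 to 467 and 279.8 to 492 CPM), endothelial markers for 3 and 2 of 6 (295 to 323, 337 to 439 and 313 to 429.99 CPM), and stellate cell and fibroblast markers for 2 of 6 in both (308 to 462, 483 to 867 and 478 to 1059.7 CPM). Of the 5 red cell markers, the 4 globin genes were higher and Alas2 lower in vehicle-treated mice (sums of 135 to 240.1, 220.4 to 2025 and 226 to 733 CPM), and in hAAM-treated mice 1 was lower. Among neutrophil, cholangiocyte, B cell, and T and NK cell markers, 1 gene, Cd4 in vehicle-treated mice, passed the test, and it was lower; their sums lay between 1.08 and 301 CPM. Core clock genes, a list chosen after the values were seen, were higher for 6 and lower for 4 of 11 in vehicle-treated mice and higher for 3 and lower for 1 in hAAM-treated mice. The part of these shifts in the chaperone results was not tested, and in whole tissue fewer cells of a type and less RNA per cell cannot be told apart.

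In vehicle-treated mice, 6 of the 10 chaperones were lower than in control mice and none was higher (edgeR's quasi-likelihood test, Benjamini-Hochberg FDR under 0.05). Of all 22581 genes tested 29.8% passed, 14.8% lower and 15% higher, and DESeq2 called 6 of the 10 and 34% of all genes. The 6 were Hsph1, Hsp90aa1, Bag3, Hspa8, Hspd1 and Hspe1, at 1.48-fold (Hspe1) to 2.7-fold (Hsph1) below control. In each of the 6, all 5 vehicle-treated livers lay below all 3 control livers, a pattern that 17.3% of all genes showed. Hspa1a and Hspa1b, the pair most strongly raised by heat in most cells, had fitted changes near 0 with wide intervals, and Dnajb1 and Hspb1 did not pass the test. The median log2 fold change of the 10 genes was -0.57, against 0.01 for all genes tested. With total counts in place of TMM, 2 of the 10 passed the threshold, Hsph1 at -1.09 and Bag3 at -0.54, while all genes split into 8637 higher and 1110 lower in place of 3380 and 3339, and Hspa1b and Dnajb1 turned to 0.18 and 0.0029.

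**Figure D2:**
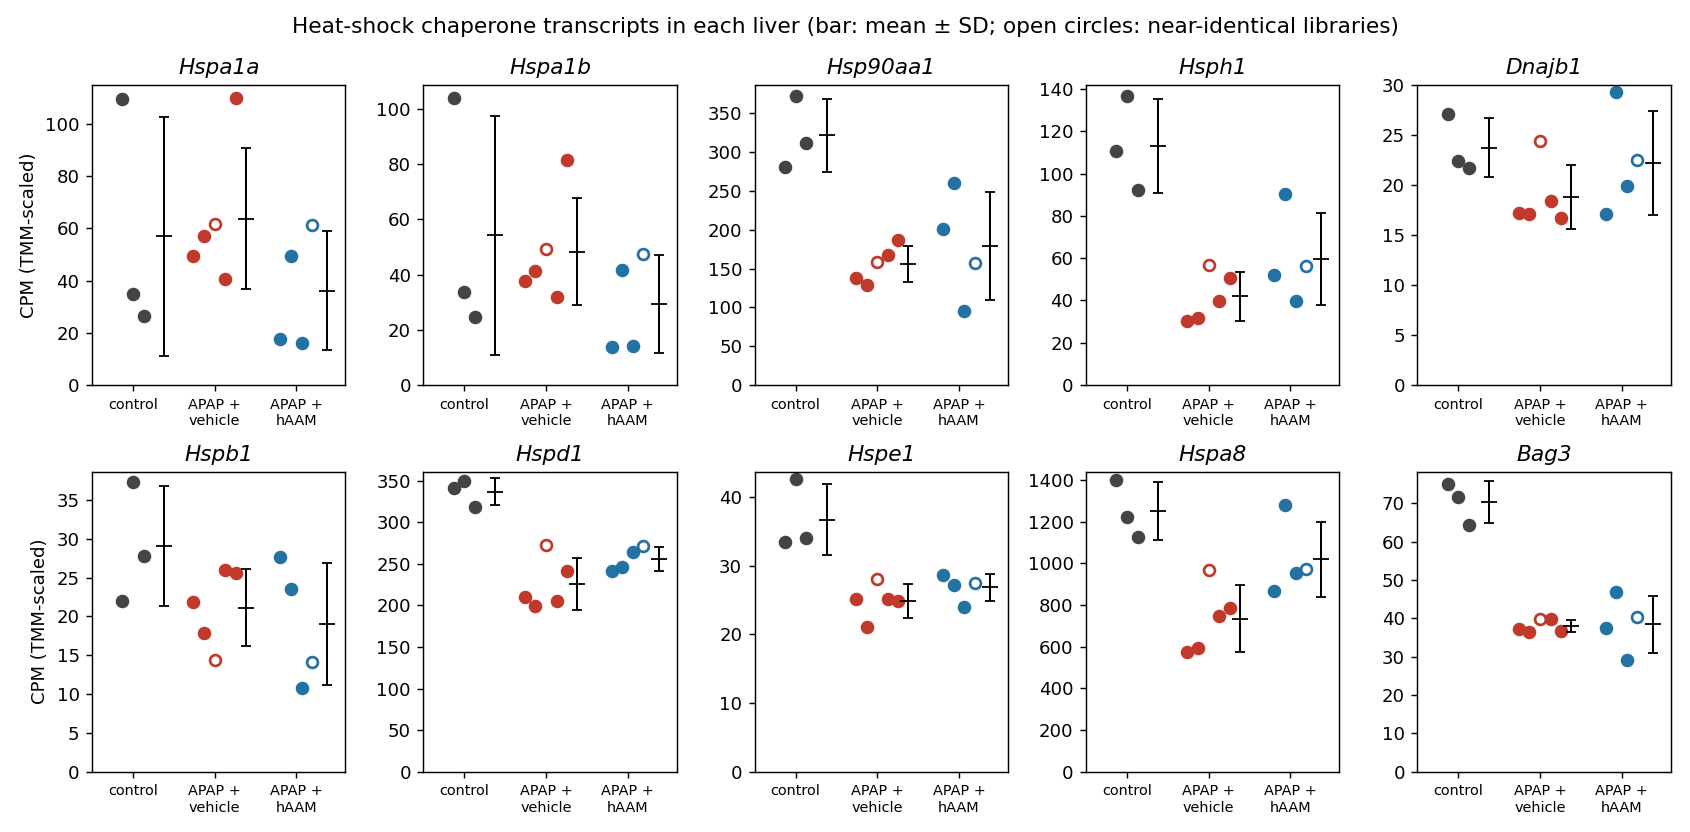
Level of each chaperone (y axis, CPM after TMM scaling, from 0) in the 3 control, 5 vehicle-treated and 4 hAAM-treated livers; points are livers, bars the mean and SD, and open circles the nearly identical libraries vehicle replicate 3 and hAAM replicate 4. All vehicle-treated livers lie below all control livers for Hsp90aa1, Hsph1, Hspd1, Hspe1, Hspa8 and Bag3, while Hspa1a and Hspa1b spread widely within every group.

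Hspa8 (ENSMUSG00000015656, chr9:40800984-40810087, plus strand) encodes HSC70, the constitutive HSP70 that folds new proteins and uncoats clathrin vesicles. Its level was 1399, 1225 and 1124 CPM in control mice 1 to 3, 574, 593, 967, 749 and 787 CPM in vehicle-treated mice 1 to 5, and 869.96, 1280.5, 954 and 971 CPM in hAAM-treated mice 1 to 4. Every vehicle-treated liver was below the lowest control liver, the highest being replicate 3, whereas hAAM replicate 2 reached into the control range. The change from control was -0.77 on the log2 scale in vehicle-treated mice (SE 0.181, edgeR FDR 0.00843) and -0.29 in hAAM-treated mice (SE 0.191, FDR 0.298), and with total counts the latter was 0.02.

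Hspa1a (ENSMUSG00000091971, chr17:34969190-34972156, minus strand) and Hspa1b (ENSMUSG00000090877, chr17:34956436-34959238, minus strand) are neighbouring copies of the inducible HSP70 gene. Hspa1a was at 109.6, 35.0 and 26.3 CPM in control mice, at 49.4, 56.9, 61.7, 40.6 and 110.1 CPM in vehicle-treated mice and at 17.5, 49.6, 16.2 and 61.3 CPM in hAAM-treated mice. Hspa1b had 104, 33.7 and 24.8 CPM in control, 37.6, 41.4, 49.1, 31.9 and 81.3 CPM in vehicle-treated and 13.9, 41.5, 14.2 and 47.5 CPM in hAAM-treated mice. The same livers were high or low for both copies: control replicate 1 and vehicle replicate 5 were highest, hAAM replicates 1 and 3 were lowest, and the 3 groups overlapped. The control mice differed among themselves by 4.17-fold for Hspa1a and 4.2-fold for Hspa1b, more than the means of any groups. Vehicle-treated mice differed from control by 0.16 for Hspa1a (SE 0.542, 95% interval -1.02 to 1.34, edgeR FDR 0.847) and -0.17 for Hspa1b (SE 0.523, -1.30 to 0.97, FDR 0.838). Without control replicate 1 these values were 1.06 (FDR 0.185) and 0.72 (FDR 0.336), so the size of both and the sign of Hspa1b rest on that liver. Hspa1a turned negative without control replicate 2 or 3 or vehicle replicate 5 (-0.10, -0.18 and -0.13). With hAAMs the values were -0.66 for Hspa1a (SE 0.561, edgeR FDR 0.435) and -0.89 for Hspa1b (SE 0.547, FDR 0.271), and 0.24 and 0.0035 without control replicate 1. Without both nearly identical libraries they were -1.04 (FDR 0.256) and -1.22 (FDR 0.181). The copies share 1716 of their 50-base stretches, which is 58.8% of those of Hspa1a and 62.3% of those of Hspa1b, and reads from one may have been counted to the other. A further annotated gene, Gm20481, overlaps Hspa1a by 2225 bases on the opposite strand and is not among the genes counted. It carries 16.2% of the stretches of Hspa1a and 10.8% of those of Hspa1b, and its part in these counts was not tested. Summed into 1 gene, Hspa1a and Hspa1b changed by 0.01 in vehicle-treated mice (SE 0.534, FDR 0.990) and -0.76 in hAAM-treated mice (SE 0.555, FDR 0.353).

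Hsph1 (ENSMUSG00000029657, chr5:149614287-149636376, minus strand) encodes HSP110, a nucleotide exchange factor of HSP70 that helps to dissolve aggregates. It was measured at 111, 137 and 92.3 CPM in control mice, 30.4, 31.9, 56.9, 39.8 and 50.7 CPM in vehicle-treated mice and 52.2, 90.5, 39.6 and 56.2 CPM in hAAM-treated mice. All injured livers lay below all control livers, although hAAM replicate 2 came close to the lowest control. Among the 10 genes the fall was largest here in vehicle-treated mice, at -1.43 (SE 0.260, edgeR FDR 0.00233), from 113 ± 22.3 CPM (SD, n = 3) to 41.9 ± 11.6 CPM (SD, n = 5). In hAAM-treated mice the mean was 59.6 ± 21.8 CPM (SD, n = 4), a change of -0.92 (SE 0.276, FDR 0.0342).

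Bag3 (ENSMUSG00000030847, chr7:128523616-128546981, plus strand) encodes a co-chaperone that links HSP70 and small heat-shock proteins to selective autophagy. The control mice had 75.2, 71.7 and 64.4 CPM, the vehicle-treated mice 37.3, 36.5, 39.7, 39.9 and 36.6 CPM and the hAAM-treated mice 37.6, 46.8, 29.0 and 40.4 CPM. The vehicle-treated livers were within 1.09-fold of each other, the tightest group of any of the 10 genes, and no injured liver reached a control liver. The change was -0.89 in vehicle-treated (SE 0.119, edgeR FDR 4.5e-04) and -0.87 in hAAM-treated mice (SE 0.126, FDR 0.00139). It was the only one of the 10 genes under the threshold against control in both APAP groups in every alternative and with every liver left out in turn.

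Dnajb1 (ENSMUSG00000005483, chr8:83608193-83612653, plus strand) encodes HSP40, the J-domain partner that stimulates the ATPase of HSP70. It stood at 27.2, 22.4 and 21.7 CPM in control mice, at 17.2, 17.1, 24.5, 18.4 and 16.7 CPM in vehicle-treated mice and at 17.2, 29.3, 19.9 and 22.5 CPM in hAAM-treated mice. Of the vehicle-treated livers, 4 were below all controls and replicate 3 was within their range. The change of -0.34 (SE 0.169) did not pass the test (edgeR FDR 0.149), and without vehicle replicate 3 it was -0.45 and did (FDR 0.0440). Without both nearly identical libraries it was -0.44 (FDR 0.0617). In hAAM-treated mice, livers lay on both sides of the control range and the change was -0.09 (SE 0.178, FDR 0.742), with 0.015 without either control replicate 1 or hAAM replicate 1, and 0.22 with total counts.

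Hsp90aa1 (ENSMUSG00000021270, chr12:110690605-110702728, minus strand) encodes the inducible cytosolic HSP90. Its level was 280.3, 373 and 312 CPM in control mice, 138, 128, 159, 167 and 187 CPM in vehicle-treated mice and 201, 260.4, 95.5 and 158 CPM in hAAM-treated mice. The vehicle-treated livers lay between 128 and 187 CPM, well below the controls, and the hAAM-treated livers were more spread, with replicate 3 the lowest of all 12 and replicate 2 nearest to the controls. Vehicle-treated mice differed from control by -1.05 (SE 0.245, edgeR FDR 0.00821) and hAAM-treated mice by -0.85 (SE 0.259, FDR 0.0373).

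Hspb1 (ENSMUSG00000004951, chr5:135887919-135889563, plus strand) encodes HSP27, a small heat-shock protein that holds unfolded clients without using ATP. Its levels were 22.0, 37.3 and 27.8 CPM in control mice, 21.9, 17.8, 14.4, 26.0 and 25.5 CPM in vehicle-treated mice and 27.7, 23.6, 10.8 and 14.2 CPM in hAAM-treated mice. The groups overlapped, with 3 of 5 vehicle-treated and 2 of 4 hAAM-treated livers below the lowest control. Neither the change of -0.46 in vehicle-treated (SE 0.292, edgeR FDR 0.256) nor that of -0.61 in hAAM-treated mice (SE 0.307, FDR 0.178) passed the test. Without control replicate 2, the highest control liver, they were -0.24 and -0.39, and with total counts -0.10 and -0.28.

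Hspd1 (ENSMUSG00000025980, chr1:55077835-55088243, minus strand) and Hspe1 (ENSMUSG00000073676, chr1:55088132-55091307, plus strand) encode HSP60 and HSP10, the barrel and lid of the mitochondrial chaperonin. They are read head to head and overlap by 112 bases, and since the strand setting of the counting is not given in the sources used here, reads in that overlap may have been split between them. For Hspd1 the control mice had 342, 349.8 and 318 CPM, the vehicle-treated mice 209.8, 199, 273, 205 and 242 CPM and the hAAM-treated mice 241, 247, 264 and 272 CPM. For Hspe1 the values were 33.5, 42.6 and 34.1 CPM in control, 25.2, 21.1, 28.1, 25.2 and 24.9 CPM in vehicle-treated and 28.7, 27.3, 24.1 and 27.5 CPM in hAAM-treated mice. In both genes every injured liver was below every control liver. The chaperonin genes fell by near-equal amounts in vehicle-treated mice, Hspd1 by 0.58 (SE 0.108, edgeR FDR 0.00266) and Hspe1 by 0.56 (SE 0.103, FDR 0.00246) on the log2 scale. In hAAM-treated mice Hspd1 differed from control by -0.40 (SE 0.114, FDR 0.0294) and Hspe1 by -0.45 (SE 0.109, FDR 0.0143). With total counts these 2 values were -0.0971 (edgeR FDR 0.519) and -0.145 (FDR 0.435).

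In hAAM-treated mice, 5 of the 10 chaperones were lower than in control mice and none higher, where 20.7% of all genes tested passed, 9.96% lower and 10.7% higher (25.8% by DESeq2, which also called 5 of the 10). They were Hsph1 at 1.90-fold, Bag3 at 1.83-fold, Hsp90aa1 at 1.80-fold, Hspe1 at 1.37-fold and Hspd1 at 1.32-fold below control, and in these 5 no hAAM-treated liver overlapped the control livers, as for 14.2% of all genes. The fitted change was below 0 for all 10 genes, with a median of -0.63 against 0.02 for all genes tested. This comparison shares its control mice with the one above and is not independent of it. With total counts Bag3 alone passed the threshold, at -0.56, and all genes split into 6559 higher and 781 lower in place of 2418 and 2248. Bag3 was also the only call with replicate number as a block (13.1% of all genes passed in that fit). With only the 2 groups compared 3 were called (12.7%), and Hsp90aa1 (edgeR FDR 0.0953) and Hsph1 (FDR 0.0556) missed the threshold. The count and its background both moved when 1 liver was left out: it was 2 without control replicate 1 (13.1% of all genes passed in that fit), 1 without control replicate 2 (15%), 2 without control replicate 3 (10.5%), 2 without hAAM replicate 1 (12.5%) and 3 without hAAM replicate 4 (19.7%). It was also 3 without both nearly identical libraries (19.6%). Without those 2 libraries, Hsp90aa1 (-0.79, edgeR FDR 0.0905) and Hsph1 (-0.89, FDR 0.0573) missed the threshold, and Hspd1, Hspe1 and Bag3 passed it. Over the 12 fits that each left out 1 liver, the threshold was missed 5 times by Hsp90aa1 (control replicates 1, 2 and 3 and hAAM replicates 1 and 4), 6 times by Hsph1 (the same livers and hAAM replicate 3), 5 times by Hspd1 (control replicates 1, 2 and 3 and hAAM replicates 1 and 2), 1 time by Hspe1 (control replicate 2) and 0 times by Bag3.

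When hAAMs were compared with vehicle, none of the 10 chaperones passed the edgeR test (0 of 10 at an FDR under 0.05), and 0% of all genes tested did. At an unadjusted p under 0.05 there was 1 of the 10, Hspa8, against 5.02% of all genes, and DESeq2 called 0 of the 10 and 0.00443% of all genes. Hspa8 was 0.47 higher on the log2 scale with hAAMs (SE 0.168, 95% interval 0.11 to 0.84, edgeR FDR 0.966). Its 4 hAAM-treated livers were all above the median of the vehicle-treated livers. Hsph1 was 0.51 higher (interval -0.02 to 1.04) and Hspd1 0.18 higher (-0.04 to 0.40), while Hspa1a and Hspa1b were at -0.82 (-1.91 to 0.28) and -0.72 (-1.79 to 0.35). Bag3 differed by 0.02 (-0.23 to 0.26), the value nearest to 0. The remaining fitted differences were 0.20 for Hsp90aa1 (-0.30 to 0.69), 0.24 for Dnajb1 (-0.10 to 0.58), -0.15 for Hspb1 (-0.74 to 0.44) and 0.11 for Hspe1 (-0.10 to 0.32). With 1 liver left out, Hsph1 ranged from 0.24 (without hAAM replicate 2) to 0.66, Hspa8 from 0.35 (without hAAM replicate 2) to 0.59, Dnajb1 from 0.08 (without hAAM replicate 2) to 0.36, Hspd1 from 0.14 to 0.26 and Hspe1 from 0.06 (without vehicle replicate 2) to 0.16. Hspa1a ranged from -1.20 (without hAAM replicate 4) to -0.53 (without vehicle replicate 5) and Hspa1b from -1.06 to -0.45 (the same livers), while Hsp90aa1 (-0.04 to 0.40), Hspb1 (-0.39 to 0.04) and Bag3 (-0.09 to 0.13) changed sign. Misses of the threshold do not show equal levels, and the intervals of Hspa1a, Hspa1b and Hsph1 leave room for differences of more than 2-fold.

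**Figure D3:**
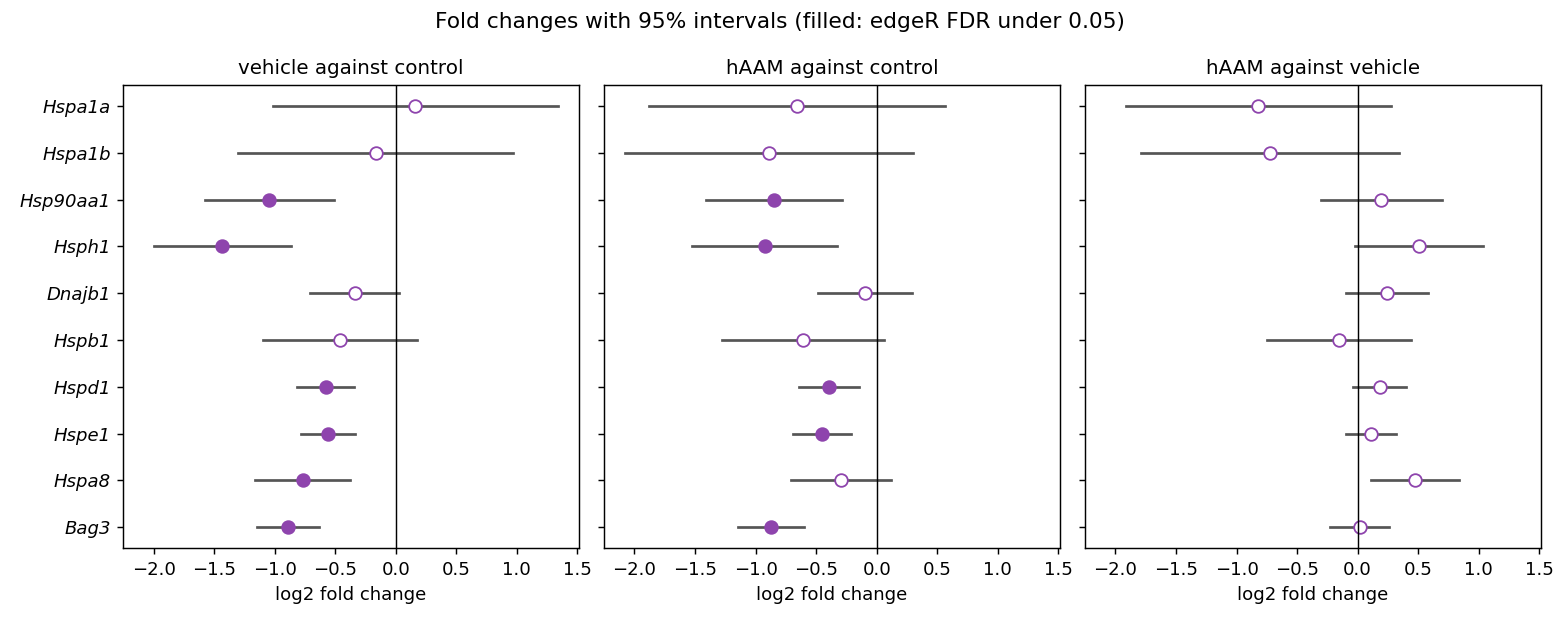
Fitted log2 fold changes of the 10 chaperones with 95% intervals (x axis) in the 3 comparisons; filled points passed the edgeR test. Against control, 6 genes with vehicle and 5 with hAAMs are filled and below 0, and none is filled between the treatments.

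The livers differed in how many chaperones were low. In vehicle-treated mice 1 to 5, 8, 8, 7, 7 and 7 of the 10 genes were below the range of the control mice, and in hAAM-treated mice 1 to 4, 9, 5, 10 and 7 were. Of all genes tested, 29.4% to 36.2% were below that range in each of these 9 livers, with 34.1% in hAAM replicate 2 and 30.4% in hAAM replicate 3. A liver outside that range on the high side was seen for 1 gene each in vehicle replicate 5 (Hspa1a) and hAAM replicate 2 (Dnajb1). The lowest and the highest number were both in the hAAM-treated group, 5 in replicate 2 and 10 in replicate 3. Around their group means, the genes did not vary as 1 block over the 12 livers. Hspa1a and Hspa1b were the closest pair, with a Pearson correlation of 0.998 after removal of group means, followed by Hsph1 with Hspa8 at 0.84 and Dnajb1 with Hspa8 at 0.83. Hspb1 and Hspd1 were the farthest apart, at -0.42. These correlations describe 12 livers that share libraries and scaling, and for Hspa1a and Hspa1b shared sequence as well.

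**Figure D4:**
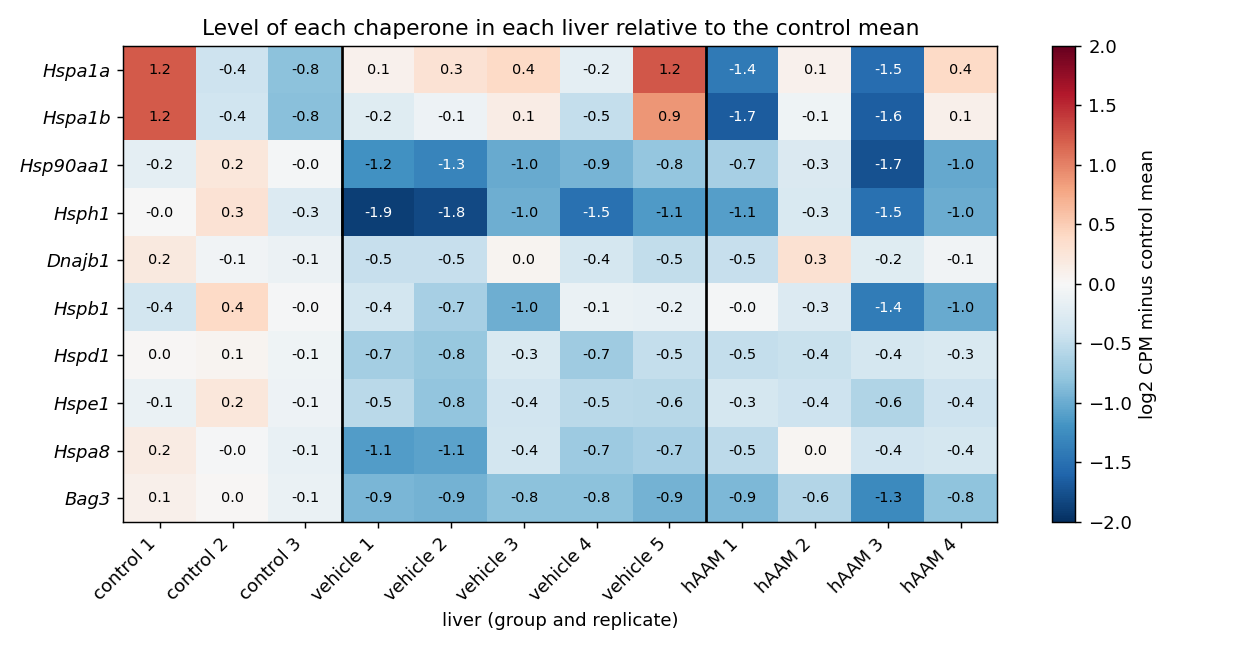
Level of each chaperone in each liver as log2 CPM minus the mean of the control mice (colour and printed value; each row is a gene and each column a liver, and black lines part the groups). Hsp90aa1, Hsph1, Hspb1, Hspd1, Hspe1 and Bag3 are below 0 in all 9 injured livers, vehicle replicate 4, hAAM replicates 1 and 3 and control replicate 3 are below 0 for all 10 genes, and Hspa1a and Hspa1b change together from liver to liver.

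Per kilobase of exon (RPKM, the CPM divided by exon length, so that genes of unequal length can be compared), Hspa8 was the most abundant of the 10 in every group, at 290.5 RPKM in control, 171 with vehicle and 237 with hAAMs, and Hspd1 the second, at 127, 85.4 and 96.9 RPKM. Hsp90aa1 was the third with 81.8 RPKM in control mice, above every other of the remaining genes there without overlap. In control mice Hspb1 (28.2 RPKM), Bag3 (27.5), Hspe1 (24.9), Hspa1b (19.3), Hspa1a (19.2) and Hsph1 (15.6) followed, each overlapping its neighbour in that order, and Dnajb1 was last at 7.41 RPKM, without overlap with Hsph1. In vehicle-treated mice Hsph1 came last instead, at 5.77 RPKM, overlapping Dnajb1 at 5.86. The lower ranks of hAAM-treated mice all overlapped from Hsp90aa1 (45.4 RPKM) down to Dnajb1 (6.94).

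Some of these counts are uncertain because other genes carry the same sequence. Processed pseudogenes that share 50-base stretches with Hsp90aa1 held 24.9% of the counts of gene and pseudogenes together, and those of Hspa8 32.02%. For each of the other 8 genes, pseudogenes of any type held 10.3% or less. The 10.3% is that of Dnajb1, whose counted pseudogenes each share at most 4 of its 3154 stretches. By sequence alone, other genes carry 50.1% of the stretches of Hspb1, 47.5% of Hsp90aa1, 42.1% of Hspd1, 39.4% of Hspa8, 22.8% of Hspe1 and 0.412% of Dnajb1. By the measure of likeness used here, the correlation over 12 livers after removal of group means among 11162 genes, the genes most like Hsp90aa1 were Gm12346 (0.997) and Gm5844 (0.981), and those most like Hspa8 were Gm15459 (0.996) and Gm8355 (0.986), all of them processed pseudogenes that share such stretches. Hsph1 and Bag3 share no such stretch with another annotated gene. The gene most like Hsph1 was Chordc1 (0.96), which encodes an HSP90 co-chaperone, followed by Cwc27 (0.96). For Bag3 it was Snapc1 (0.95), for Hspb1 Ptpn1 (0.98), for Dnajb1 Thap1 (0.94), for Hspd1 Gm11342 (0.93), for Hspe1 Tsen15 (0.90) and for both Hspa1a (0.90) and Hspa1b (0.91) Khdc4. As the top values among 11162 genes over only 12 livers, such correlations can be high by chance, which was not tested.

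The wider chaperone network was read from 9 lists that hold none of the 10 genes. Of 119 list genes tested, 34 were lower and 12 higher in vehicle-treated mice, with 14.8% and 15% of all genes as background, and 24 were lower and 7 higher in hAAM-treated mice, with 9.96% and 10.7% as background. Between the treatments no list gene had an FDR under 0.05. The median log2 fold change over the 119 genes was -0.15 in both APAP groups, against 0.01 and 0.02 for all genes. These directions hold relative to the typical gene: with total counts alone, 39 higher and 11 lower calls were made with vehicle and 25 and 2 with hAAMs, and the medians were 0.21 and 0.16 against 0.36 and 0.32 for all genes. Of the list genes named below as lower, Hspa13 (-0.24 and -0.22), Sirt1 (-0.20 and -0.12), Hsf1 (0.03 and 0.04) and, with vehicle, Trap1 (-0.19) then missed the threshold against control, and with hAAMs so did Fkbp4 (-0.36), Ahsa1 (-0.29), Hspa4l (-0.36), Dnaja1 (-0.32), Dnajb2 (-0.33), Hspb6 (-0.39) and Creld2, the last at an edgeR FDR of 0.0611.

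HSP90 and its co-chaperones held the most falls, with 10 of 20 lower and 3 higher with vehicle and 7 lower and 1 higher with hAAMs (list medians -0.39 and -0.24), whereas total counts gave 4 lower and 9 higher, and 0 lower and 3 higher. Fkbp4, an immunophilin that carries steroid receptors with HSP90, had 157 ± 19.3 CPM in control (SD, n = 3), 79.1 ± 13.8 in vehicle-treated (SD, n = 5) and 98.5 ± 15.0 in hAAM-treated mice (SD, n = 4), changes of -0.99 and -0.68 (edgeR FDR 8.13e-04 and 0.0116). Ahsa1, the activator of the HSP90 ATPase, changed by -0.86 and -0.61 (FDR 2.88e-04 and 0.00431). In the other direction, Fkbp5, the glucocorticoid-induced relative of Fkbp4, was at 35.5 ± 4.49 CPM in control, 129.7 ± 26.1 in vehicle-treated and 92.1 ± 23.7 CPM in hAAM-treated mice, changes of 1.87 and 1.38 (FDR 2.60e-04 and 0.00268). Bag2, a nucleotide exchange factor, rose by 0.88 in vehicle-treated mice (FDR 0.0185) and was at 0.65 with hAAMs (FDR 0.0897).

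Among 8 further HSP70 and HSP110 genes, listed as cytosolic although Hspa13 belongs to microsomes, 2 were lower and 1 higher in each APAP group (medians -0.06 and -0.24), and with total counts 1 was lower and 2 higher with vehicle and 0 lower and 2 higher with hAAMs. Hspa4l, another HSP110 protein, changed by -0.83 with vehicle and -0.68 with hAAMs (edgeR FDR 0.00109 and 0.00653), Hspa13 by -0.58 and -0.53 (FDR 0.00260 and 0.00898), and Hspa12b, an HSP70 relative of endothelial cells, by 0.90 and 0.84 (FDR 0.0107 and 0.0253). Of 16 J-domain genes, 4 were lower and 2 higher in each group (medians -0.09 and -0.10), and with total counts 2 were lower and 7 higher with vehicle and 0 lower and 6 higher with hAAMs. Dnaja1, a J-domain partner of HSC70, stood at 202 ± 16.3 CPM in control, 106 ± 18.1 in vehicle-treated and 131 ± 20.6 CPM in hAAM-treated mice, changes of -0.93 and -0.63 (FDR 9.19e-04 and 0.0134). Dnajb2 changed by -0.88 and -0.63 (FDR 6.67e-04 and 0.00768), Dnajc8 by 0.43 and 0.42 (FDR 0.00542 and 0.0111), and Dnajc5 by 0.33 in vehicle-treated mice (FDR 0.0119), with 0.12 in hAAM-treated mice (FDR 0.360).

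Of the 7 other small heat-shock genes tested, 2 were higher and 1 lower in vehicle-treated mice and 1 higher and 2 lower in hAAM-treated mice, with list medians of 0.49 and 0.55, and total counts gave 3 higher and 1 lower with vehicle and 2 higher and 1 lower with hAAMs. Hspb8, the partner of Bag3 in selective autophagy, was at 205 ± 32.4 CPM in control, 101.5 ± 20.4 in vehicle-treated and 107 ± 23.8 CPM in hAAM-treated mice, changes of -1.01 and -0.93 (edgeR FDR 0.00265 and 0.00867). Cryab, alpha-B crystallin, rose by 1.43 in vehicle-treated mice (FDR 0.0180) and was at 1.04 with hAAMs (FDR 0.0889). The remaining calls, named after their values were seen, were Hspb7 at 3.33 and 2.13 (FDR 0.00274 and 0.0429), which had 2 to 6 counts in each control liver, and Hspb6 at -0.69 in hAAM-treated mice (FDR 0.0187).

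Mitochondrial chaperones and proteases had 6 lower of 16 with vehicle and 3 with hAAMs, and none higher (medians -0.22 and -0.21), while total counts gave 1 lower and 5 higher, and 0 lower and 3 higher. Clpx, the unfoldase of the matrix protease ClpXP, changed by -1.29 in vehicle-treated mice (FDR 0.00233) and was at -0.66 with hAAMs (FDR 0.0783), and Trap1, the mitochondrial HSP90, changed by -0.53 (FDR 0.0110) and was at -0.37 (FDR 0.0810). In the endoplasmic reticulum 8 of 17 chaperone genes were lower with vehicle and 3 with hAAMs, again with none higher (medians -0.49 and -0.53), and total counts gave 2 lower and 2 higher, and 1 lower and 1 higher. Creld2, a protein of that compartment raised by its stress, changed by -1.56 and -1.34 (FDR 0.00504 and 0.0202) and Hyou1, the HSP110 relative of that compartment, by -1.05 and -1.06 (FDR 0.00267 and 0.00566). The CCT chaperonin and prefoldin, which fold actin and tubulin, had 13 of 14 genes not called in each group (medians -0.04 and 0.00), and Pfdn1, a prefoldin subunit, was higher at 0.36 and 0.32 (FDR 0.00504 and 0.0153). With total counts 5 and 4 of the 14 were higher and none lower.

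Of 9 heat-shock factors and regulators, 3 were lower in each APAP group and none higher (medians -0.15 and -0.27), whereas with total counts none was lower and 1 higher in each. Hsf1, the main heat shock factor, was at 20.9 ± 0.639 CPM in control, 16.8 ± 1.35 in vehicle-treated and 17.4 ± 0.293 CPM in hAAM-treated mice, changes of -0.31 and -0.27 (edgeR FDR 0.00698 and 0.0271). Hsf2, its relative, had fitted values of -0.26 and -0.37 and did not pass the test (FDR 0.124 and 0.0550), and Sirt1, a deacetylase that acts on Hsf1, changed by -0.54 and -0.41 (FDR 0.00560 and 0.0373). Of 12 other heat-inducible genes that are no chaperones, 3 were higher with vehicle and 1 with hAAMs, where 15% and 10.7% of all genes were higher, and none was lower (medians -0.03 in both), with 5 and 3 higher by total counts. Atf3, a stress-induced transcription factor, changed by 1.40 and 2.21 (FDR 0.0362 and 0.00918), and Zfand2a, which acts at the proteasome, by 0.90 in vehicle-treated mice (FDR 0.0101), with 0.49 in hAAM-treated mice (FDR 0.144).

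Several of these list counts moved with single livers, and so did the share of all genes called. With vehicle, that share was 29.8% in the full fit. Without control replicates 1 and 2 it was 21.5% and 23.2%, and without hAAM replicate 3 it was 32%. Without vehicle replicates 1, 3, 4 and 5 it was 24.3%, 31.5%, 23.1% and 25.4%. With hAAMs it was 20.7%, and 13.1%, 15% and 10.5% without control replicates 1 to 3. Without hAAM replicates 1 to 4 it was 12.5%, 13.1%, 24.2% and 19.7%. In vehicle-treated mice the 6 mitochondrial calls were 1 without control replicate 1, the 8 of the endoplasmic reticulum were 3 without control replicate 2 and 5 without vehicle replicate 1, the 3 small heat-shock calls were 5 without vehicle replicate 3, and the 3 other heat-inducible calls were 1 without control replicate 2 or vehicle replicate 1, 4 or 5, and 5 without hAAM replicate 3. In hAAM-treated mice the 3 mitochondrial calls were 0 without control replicate 1, 1 without control replicate 2 or 3 or hAAM replicate 2, and 7 without hAAM replicate 3, the 3 small heat-shock calls were 1 without control replicate 1 or 3 or hAAM replicate 1 or 2, and the 3 calls among factors and regulators were 0 without control replicate 1 or 3 or hAAM replicate 2 and 1 without hAAM replicate 1. There the 6 J-domain calls were 3 without control replicate 3, the call of Pfdn1 was lost without control replicate 2 or 3, and the 1 other heat-inducible call became 2 without control replicate 3 or hAAM replicate 4 and 4 without hAAM replicate 3. Without both nearly identical libraries, the 3 small heat-shock calls with vehicle were 5 (30% of all genes passed), and with hAAMs (19.6%) the 3 calls among factors and regulators were 1 and the 1 other heat-inducible call became 2. The lists of HSP90 with its co-chaperones and of further HSP70 genes kept counts within 1.5 times of the full fit for every liver left out.

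**Figure D5:**
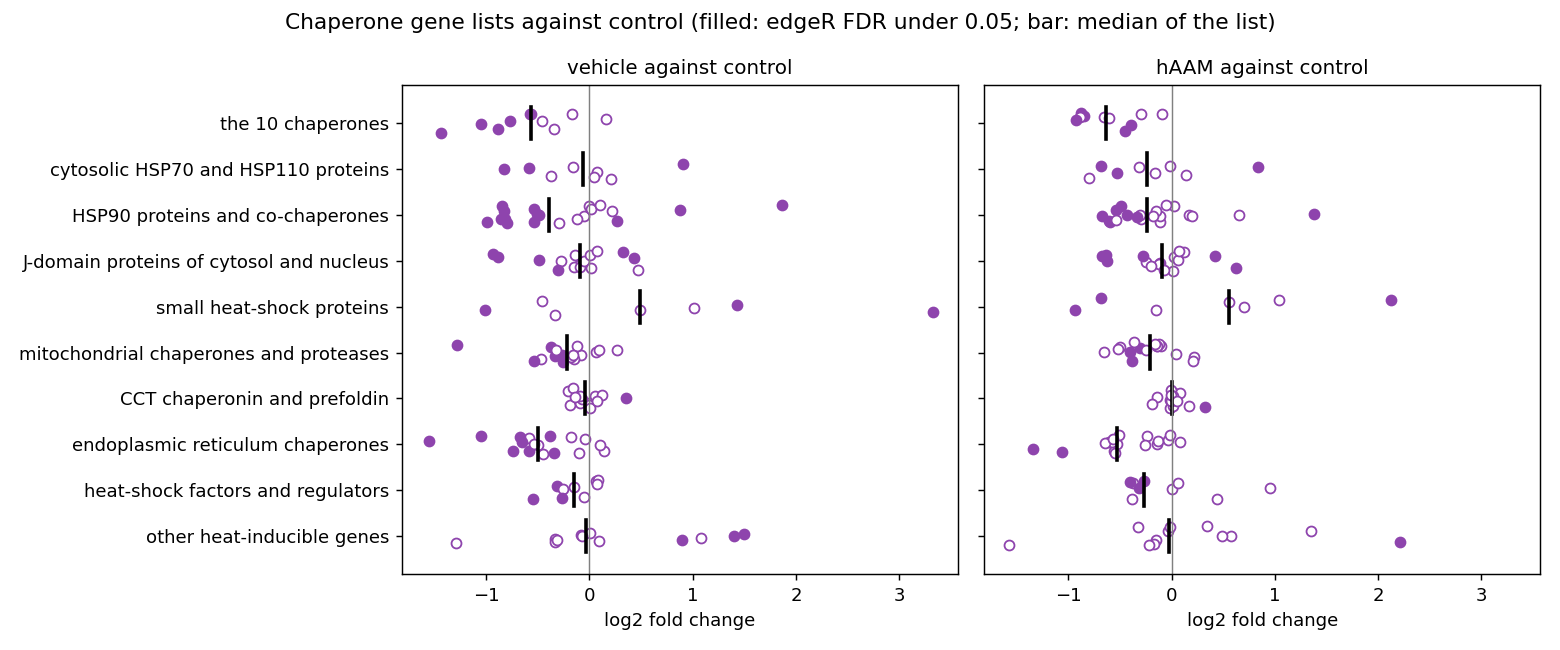
Fitted log2 fold changes (x axis) of the 10 chaperones and of the genes of the 9 lists against control; each point is a gene, filled where the edgeR FDR is under 0.05, and bars mark the list median. Filled points of the HSP90, mitochondrial and endoplasmic reticulum lists lie mostly below 0, and those of the other heat-inducible genes, 3 with vehicle and 1 with hAAMs, above 0.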

How the data were processed

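Counts of reads per gene, deposited by the authors, were analysed for 12 mouse livers. Per the labels and methods, RNA from frozen liver was depleted of ribosomal RNA, made into directional libraries with a fragmentation time set by RNA quality, trimmed with cutadapt 4.6, aligned with STAR 2.7.1a to GRCm38 and counted with summarizeOverlaps; the strand setting and counting mode are not given in the sources used here. The submitters' processing notes also name FastQC, MultiQC 1.25 and DESeq2 1.38.3. Symbols came from GENCODE M21 for 24092 of 24187 genes, and promoters from RefSeq (GRCm38.p6).

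Genes with enough counts by edgeR's filter (22581) were scaled by TMM and fitted with all 3 groups in edgeR 4.0.16 (R 4.3.3), by its quasi-likelihood test with Benjamini-Hochberg FDR over all genes tested and a threshold of 0.05. Each group was set against each other group, intervals are 95%, and log2 CPM for correlations used a prior count of 2. Alternatives were DESeq2 1.42.0, size factors by median of ratios, total counts, no filter, 10 counts in every liver (18537 genes), robust estimation, 2 groups only, a replicate block, Hspa1a with Hspa1b summed, leaving out each liver and leaving out the nearly identical libraries. On simulated counts for vehicle-treated against control mice (22581 genes, 200 changed), 76% of 2-fold and 93% of 4-fold changes were called, with 8 unchanged genes called. The simulated counts followed the fitted model, with few genes changed and as many rises as falls. In the data 29.8% of all genes passed and the TMM factors separated the groups, so these shares may not carry over.

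The chaperones, the lists and the tests were chosen with earlier results of these data known. From each list the 2 largest rises and 2 largest falls in vehicle-treated mice, with an FDR under 0.05 and a mean log2 CPM of 0 or more, were named, with Hsf1 and Hsf2 always; Hspb3 of the small heat-shock list and Tf and Ncr1 of the marker lists were not analysed here. Likeness used genes with a mean log2 CPM of 2 or more. Core clock genes were added as a list after the values were seen.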

Additional observations from a re-analysis of the deposited data

Results flagged for a closer look

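Dnajb1 in vehicle replicate 3 stood apart from the other 4 vehicle-treated livers, with a log2 CPM of 4.61. Its gap to the nearest of them was 0.746 of the range of the group, above Dixon's 95% critical value of 0.71. Of 20 groups of values examined in this way, 1 passed, and chance passes about 1 in 20. Vehicle replicate 3 is also the library that was nearly the same as hAAM replicate 4.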

How the results depend on the processing

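DESeq2, median-of-ratios size factors, both other filters, robust estimation and the summed Hspa1 pair left 6, 5 and 0 of the 10 genes called. With total counts 2 were called with vehicle and 1 with hAAMs (43.2% and 32.5% of all genes), and the sign changed for Hspa1b (0.18) and Dnajb1 (0.0029) in vehicle-treated mice, for Dnajb1 (0.22) and Hspa8 (0.0177) in hAAM-treated mice and for Bag3 between treatments (-0.0119). In this setting Hsp90aa1 (-0.70), Hspd1 (-0.23), Hspe1 (-0.22) and Hspa8 (-0.42) missed the threshold in vehicle-treated mice. With only the 2 groups compared 3 were called in hAAM-treated mice, where 12.7% of all genes passed, against 20.7% in the full fit. Without the nearly identical libraries 3 were called there (19.6% of all genes). Without control replicate 1 as well, an alternative added after seeing the data, 2 were called (13.9%), with Hspa1b in vehicle-treated mice at 0.73 and Dnajb1 in hAAM-treated mice at 0.0127.

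With the replicate block, 6 were called in vehicle-treated and 1, Bag3, in hAAM-treated mice (FDR 0.00780), over all genes 4253 and 2959 in place of 6719 and 4666, and the signs of Hspa1a in vehicle-treated mice (-0.0434) and of Bag3 between treatments (-0.0135) changed. Same-numbered livers correlated at -0.46 to 0.39 in 10 pairs, 3 of them over 0.1, and not every liver correlated best with its own number. With so few livers per group, and with the nearly identical libraries among them, these values cannot decide whether the numbers pair the livers.

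Leaving out each liver gave 6 to 7 calls in vehicle-treated mice, 1 to 5 in hAAM-treated mice and 0 between treatments. Over all genes the same fits called 4633 to 7197, 2419 to 5456 and 0 to 1. Signs changed for Hspa1a (-0.18 to 1.06) and Hspa1b (-0.51 to 0.72) in vehicle-treated mice, for Hspa1a (-1.04 to 0.24), Hspa1b (-1.23 to 0.0035) and Dnajb1 (-0.25 to 0.015) in hAAM-treated mice, and between treatments for Hsp90aa1 (-0.0413 to 0.40), Hspb1 (-0.39 to 0.0431) and Bag3 (-0.0907 to 0.13). The cause of these changes was not tested. The lowest count behind any value of the 10 genes was 556.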
